A study of Homo sapiens with 4 samples.

Results

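Scavenger receptors were examined as 10 named genes, CD36, MSR1, CD163, MRC1, STAB1, SCARB1, MARCO, CD68, COLEC12 and OLR1, of 35585 genes that the files could be summed to. The genes were named by function, with no measured value in the rule, and all 10 were found. The cells were iMGL, cells resembling microglia that were grown in culture from the human pluripotent stem cell line WTC11. S1KO cells, from WTC11 edited at INPP5D so that the phosphatase SHIP1 is missing, were compared with WT cells of the unedited line. Each genotype had 2 libraries (S1KO 1 and S1KO 2, WT 1 and WT 2), and no treatment or time point is given. According to the series' design, each genotype comprised 2 clones and the aims were microglia markers and whether differentiation needs SHIP1. No label says which clone a library came from or where INPP5D was cut, so the p-values speak only of the variation among these 4 libraries, which may be technical.

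Scavenger receptors are surface and lysosomal proteins of macrophages that bind modified lipoproteins, other polyanionic ligands, dying cells and spent plasma complexes. Most carry their cargo to the lysosome, where its lipid, haem or protein is broken down, and SCARB1 also exchanges cholesterol with high-density lipoprotein at the cell surface. They are grouped in classes by structure: MSR1, MARCO and COLEC12 are trimers with a collagen-like stalk (class A), CD36 and SCARB1 are loops anchored at both ends (class B), CD68 is a mucin-like lysosomal protein (class D), OLR1 is a lectin-like receptor (class E), STAB1 is a giant multidomain receptor (class H), and CD163 is built of scavenger receptor cysteine-rich domains (class I). MRC1, the mannose receptor, takes up mannosylated glycoproteins. In brain tissue CD163 and MRC1 are known mainly from macrophages of the vessel walls and meninges rather than from microglia.

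The libraries held 22792480 (S1KO 1) and 22334585 (S1KO 2) estimated counts in S1KO, and 21516813 (WT 1) and 25927881 (WT 2) in WT. Transcripts of the mitochondrial genome made up 52.32% and 39.24% of S1KO 1 and S1KO 2, against 14.2% and 18.9% in WT 1 and WT 2. INPP5D, the edited gene, stood at 81.0 and 97.6 CPM (counts scaled to a common library size by the trimmed mean of M values, TMM) in S1KO, against 355.6 and 440.9 in WT. INPP5D fell in S1KO, with a log2 fold change of -2.16 (SE 0.21, edgeR quasi-likelihood adjusted p = 0.0184). Without S1KO 1 its adjusted p was 0.418 and without S1KO 2 it was 0.204, fits in which edgeR called no gene at all (1365 and 1845 at an unadjusted p under 0.05). The summed CPM of 12 microglia markers was 2220 and 2320 in S1KO against 3170 and 3340 in WT. Of these, SALL1 was at 0 in every library but WT 1 and P2RY12 fell, by 1.45 in log2 (SE 0.22, edgeR adjusted p = 0.0483, and 0.0514 without mitochondrial genes). WT 1 stood apart, with 3560 CPM summed over 12 mesenchymal markers, against 15.4 in S1KO 1, 29.9 in S1KO 2 and 10.5 in WT 2.

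No scavenger receptor passed the threshold, an adjusted p of 0.05 over all 15378 genes tested with edgeR's quasi-likelihood test, and DESeq2 called none either. Over all genes edgeR called 0.936% (0.787% higher and 0.150% lower in S1KO) and DESeq2 7.83%. Of the 10 members 9 entered the test, and MARCO did not, since its counts were too low for the filter. At an unadjusted p under 0.05, 4 of the 9 differed, where the share over all genes was 19.5%. COLEC12, CD163 and MRC1 had higher values in S1KO (10.2% of all genes) and SCARB1 had lower values (9.21%). The median log2 fold change of the 9 was -0.03, beside -0.016 over all genes tested. In 3 members both S1KO libraries lay above both WT libraries (26.0% of all genes tested), and in 1 both lay below (25.8%). Assigned shares of some STAB1 and CD163 transcripts, picked after their values were seen, did not overlap between the genotypes. SCARB1, OLR1, CD36 and MSR1 also had such transcripts, and how often this holds over all transcripts was not counted. The sequences that tell the STAB1 transcripts apart are given next.

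STAB1 has 69 exons in its full-length transcript STAB1-201 (GENCODE 29, GRCh38, chr3:52495338-52524495, plus strand). A short transcript, STAB1-205, joins exon 65 directly to exon 67 and leaves out exon 66, which is 105 bases or 35 whole codons. Another, STAB1-204, keeps the 75-base intron between exons 65 and 66. The stretches below run 5′ to 3′ and are shown because the joint or the intron is what sets these transcripts apart. Capitals mark exon 66 in STAB1-201 (chr3:52523652-52523756), the 2 bases on each side of the joint in STAB1-205, and the retained intron in STAB1-204 (chr3:52523577-52523651).
STAB1-201: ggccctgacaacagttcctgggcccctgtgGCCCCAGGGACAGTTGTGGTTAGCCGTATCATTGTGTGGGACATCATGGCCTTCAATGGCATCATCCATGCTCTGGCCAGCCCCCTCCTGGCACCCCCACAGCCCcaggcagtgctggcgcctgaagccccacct
STAB1-205: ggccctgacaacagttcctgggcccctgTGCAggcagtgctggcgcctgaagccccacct
STAB1-204: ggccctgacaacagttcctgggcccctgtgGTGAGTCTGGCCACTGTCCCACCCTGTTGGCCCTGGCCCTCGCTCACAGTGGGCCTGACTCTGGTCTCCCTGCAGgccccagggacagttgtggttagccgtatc

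Levels between genes were compared in TPM (kallisto's abundance per length, scaled to a fixed sum). STAB1 was the most abundant member in each library, at 847 TPM in S1KO 1 and 1746 in S1KO 2, against 2682 in WT 1 and 1563 in WT 2. It ranked 38 and 29 among the genes tested in S1KO 1 and S1KO 2, and 32 and 52 in WT 1 and WT 2. CD68 and OLR1 followed. CD68 had 86.6 and 105.3 TPM in S1KO and 205.0 and 118.7 in WT, and OLR1 had 69.8 and 128.7 in S1KO and 159.7 and 157.0 in WT, so the 2 overlapped and cannot be ordered. SCARB1, CD36, CD163 and MSR1 formed a middle tier, each between 6.01 and 66.3 TPM, and their order differed between libraries. COLEC12 (2.88 to 7.23 TPM, under MSR1 in each library) and MRC1 (0.61 to 1.29 TPM) were low in every library. Between 76.13% and 91.3% of COLEC12 TPM was assigned to COLEC12-202, a 492-base processed transcript with no coding sequence. The protein-coding COLEC12-201 had 0.239 and 0.593 TPM in S1KO, against 0.299 and 0.338 in WT, under MRC1 in each library. MARCO was lowest, at 0.26 TPM in each S1KO library and listed at 0 in WT. The fixed sum of TPM includes the mitochondrial transcripts, whose share was larger in S1KO, so differences between genotypes are given in CPM.

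**Figure D1:**
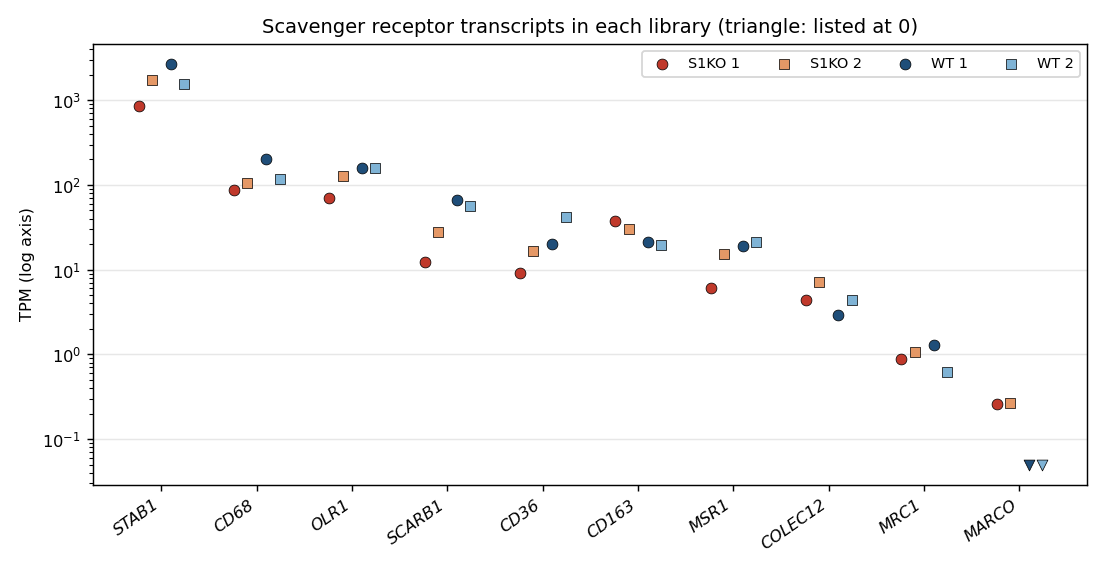
TPM of each scavenger receptor gene (log axis) in S1KO 1, S1KO 2, WT 1 and WT 2, one point per library, genes ordered by their WT mean. STAB1 lies at 847 TPM or higher in all 4 libraries, MRC1 between 0.61 and 1.29 TPM, and MARCO is listed at 0 in both WT libraries (triangles drawn at the foot of the axis).

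Among the class A receptors, COLEC12 (chr18:316740-500722, minus strand), a collectin that binds sugars and oxidised lipoprotein, had the smallest p of the members. It stood at 5.46 and 6.72 CPM in S1KO 1 and S1KO 2, against 2.72 and 2.71 in WT 1 and WT 2. Both S1KO libraries lay above both WT libraries, by 2.24-fold (log2 fold change 1.17, SE 0.34, 95% interval 0.34 to 1.99, edgeR adjusted p = 0.151). The gene rested on 81 and 143 counts in S1KO and 76 and 85 in WT. Of these counts the processed transcript COLEC12-202 was assigned 35.43% and 27.65% in S1KO, against 13.96% and 28.82% in WT. The protein-coding COLEC12-201 was assigned 43.46% and 53.44% in S1KO, against 41.8% and 52.13% in WT. With protein-coding transcripts only, COLEC12 was at 1.23 (edgeR adjusted p = 0.299). COLEC12 is also known from endothelium and connective tissue cells. Mesenchymal markers summed to 15.4 and 29.9 CPM in S1KO, against 3560 and 10.5 in WT, where COLEC12 was at 2.72 in WT 1 and 2.71 in WT 2. Endothelial markers summed to 112 and 127 CPM in S1KO, against 122 and 146 in WT, nearly all of it PECAM1, and CLDN5 was at 0 in every library. In bulk libraries fewer cells of a type and less RNA per cell cannot be told apart.

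MSR1, the macrophage receptor for acetylated lipoprotein (chromosome 8), showed no detectable difference. It had 21.6 and 22.1 CPM in S1KO, against 16.3 and 28.4 in WT, so both S1KO values fell between the WT values (log2 fold change -0.03, SE 0.29, 95% interval -0.72 to 0.66, edgeR adjusted p = 0.963). An interval of this width does not show equal levels. MARCO (chr2:118942166-118994660, plus strand), a bacterial and particle receptor of some tissue macrophages, had 5 and 4 estimated counts in S1KO and 0 in both WT libraries. A count of 0 allows up to 3 counts, which is 0.107 CPM in WT 1 and 0.0958 in WT 2, beside 0.34 and 0.19 CPM in S1KO. These limits cover counting error only, and no fold is given.

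Of the class B pair, SCARB1 (chr12:124776856-124882668, minus strand), the high-density lipoprotein receptor, was the only member with both S1KO libraries below both WT libraries. It had 45.2 and 46.6 CPM in S1KO, against 77.4 and 60.3 in WT (log2 fold change -0.58, SE 0.19, 95% interval -1.03 to -0.14, edgeR adjusted p = 0.173). The S1KO values were close together, 1.03-fold apart, and the WT values were 1.28-fold apart. Its main transcript by counts, SCARB1-203, overlapped between the genotypes, at 25.75 and 23.25 CPM in S1KO, against 29.44 and 23.50 in WT. With protein-coding transcripts only, SCARB1 was at -0.41 (edgeR adjusted p = 0.43). On the longest of these alone, a setting chosen after the data were seen, it was at -1.22 (edgeR adjusted p = 0.409). SCARB1 passed the threshold without WT 2 (-0.75, edgeR adjusted p = 0.00785), a fit in which the single WT library is assumed to vary like S1KO and 13.3% of all genes passed. Without WT 1, the library with the mesenchymal transcripts, it was at -0.39 (edgeR adjusted p = 0.258). It also passed with limma on log2(TPM + 1), at -1.65 (adjusted p = 0.0121), where the median of all genes was -0.783 and 18.8% of them passed, and on log2(TPM + 0.1), where 17.2% passed.

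CD36 (chr7:80369575-80679277, plus strand), the class B receptor for long-chain fatty acids, oxidised lipoprotein and thrombospondin, differed more within WT than between genotypes. It had 41.8 and 46.9 CPM in S1KO, against 36.03 and 76.39 in WT, and both S1KO values lay between the WT values (log2 fold change -0.34, SE 0.34, 95% interval -1.16 to 0.48, edgeR adjusted p = 0.629). The WT libraries were 2.12-fold apart, the widest spread within a genotype among the 9 members tested. The result turned on which WT library was kept: CD36 passed as lower in S1KO without WT 1 (-0.78, edgeR adjusted p = 0.00523, where 13.5% of all genes passed) and had the opposite sign without WT 2 (0.30, adjusted p = 0.465). Markers of megakaryocytes and erythroid cells, which also carry CD36, summed to 13.7 and 12.1 CPM in S1KO, against 7.72 and 11.5 in WT, with PF4, PPBP, HBB and HBA1 at 0 in every library.

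CD68 (chr17:7579467-7582113, plus strand), a lysosomal glycoprotein used as a marker of phagocytes, had 227.8 and 167.1 CPM in S1KO, against 201.5 and 131.7 in WT (log2 fold change 0.24, SE 0.26, 95% interval -0.39 to 0.88, edgeR adjusted p = 0.652). OLR1 (chr12:10158301-10172138, minus strand), the lectin-like receptor for oxidised lipoprotein, had 137.2 and 162.4 CPM in S1KO, against 183.8 and 158.3 in WT (log2 fold change -0.19, SE 0.18, 95% interval -0.62 to 0.24, edgeR adjusted p = 0.599). The genotypes overlapped at both genes. Of the members tested OLR1 had the narrowest interval in this fit, but other settings gave values outside it. These were 0.25 with the effective length offset and 0.34 with limma on log2(TPM + 1) without mitochondrial genes. With limma on log2(TPM + 1) and log2(TPM + 0.1) the values were -0.73 and -0.74.

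CD163 (chr12:7470813-7503893, minus strand), which clears haemoglobin bound to haptoglobin, and MRC1 (chr10:17809344-17911170, plus strand) both had higher values in both S1KO libraries. CD163 had 65.6 and 32.6 CPM in S1KO, against 29.5 and 21.2 in WT (1.93-fold, log2 fold change 0.95, SE 0.35, 95% interval 0.10 to 1.80, edgeR adjusted p = 0.217). S1KO 1 was 2.01-fold above S1KO 2, and S1KO 2 stood close to WT 1. The log2 fold change was 0.35 without S1KO 1 (adjusted p = 0.757), 1.35 without S1KO 2 (adjusted p = 0.317), 1.21 without WT 1 (adjusted p = 0.00012) and 0.73 without WT 2 (adjusted p = 0.0429). It also passed with no filter on low counts (0.93, edgeR adjusted p = 0.0394), where 6.05% of all genes did.

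MRC1 had 7.82 and 5.88 CPM in S1KO, against 4.4 and 2.3 in WT (2.04-fold, log2 fold change 1.03, SE 0.42, 95% interval 0.01 to 2.05, edgeR adjusted p = 0.253). It rested on 116 and 125 counts in S1KO and 123 and 72 in WT. The value ran from 0.63 without WT 2 to 1.57 without WT 1, where it passed the threshold (edgeR adjusted p = 0.00704), and on log2(TPM + 1) it was 0.04. Other markers of border macrophages overlapped between the genotypes as a sum: 10 genes came to 38.3 and 38.1 CPM in S1KO, against 33.7 and 53.0 in WT. SIGLEC1 alone had 30.9 CPM in WT 2 and 3.65 in WT 1. Of 6 tested, 4 had a positive and 2 a negative fold change (51.3% negative over all genes), with a median of 0.36. In 1 both S1KO libraries lay above both WT libraries (26.0% of all genes), in 1 below (25.8%), and none passed edgeR's threshold. CCL13 and COLEC10 were at 0 in every library, and LYVE1 and TIMD4 were at most 0.29 CPM. Others of the list were expressed, with SIGLEC1 at up to 30.9 CPM (WT 2), MS4A4A at up to 17.09 (WT 1) and PLTP at up to 11.86 (S1KO 1). The part of such cells in the CD163 and MRC1 values was not tested.

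**Figure D2:**
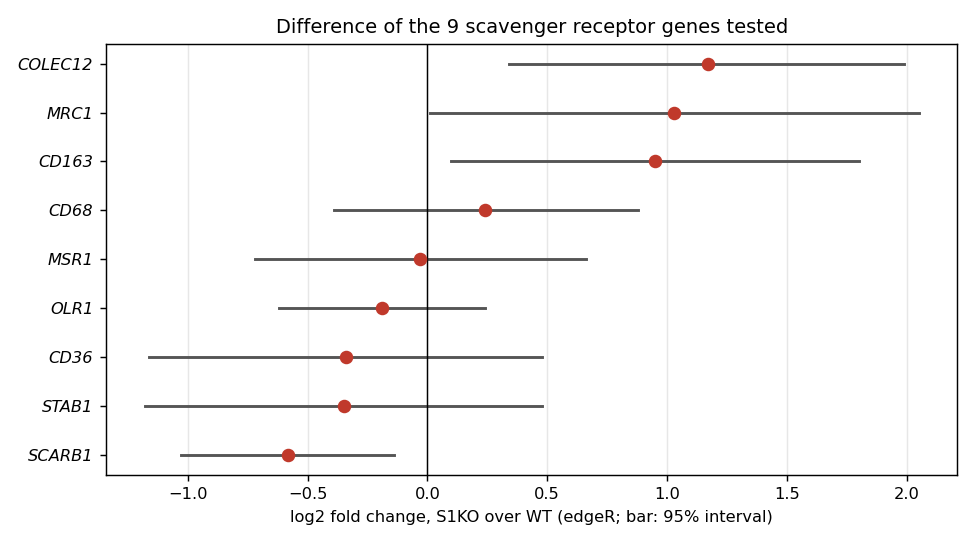
Log2 fold change of S1KO over WT for the 9 members tested with edgeR, with bars for the 95% interval. COLEC12 (1.17), MRC1 (1.03) and CD163 (0.95) lie to the right of 0 and SCARB1 (-0.58) to the left with intervals that leave out 0, and none passed after adjustment over all genes.

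STAB1, stabilin-1, which takes up the matrix protein SPARC and modified lipoprotein, had 3621 and 5015 CPM in S1KO, against 6642 and 4354 in WT. S1KO 2 lay above WT 2, so the genotypes overlapped (log2 fold change -0.35, SE 0.35, 95% interval -1.18 to 0.48, edgeR adjusted p = 0.625). The value was -0.01 without WT 1, the library with the mesenchymal transcripts, and -0.62 without WT 2. With an offset for effective length its sign turned, to 0.21 (edgeR adjusted p = 0.78). The offset rests on the transcripts to which kallisto assigned STAB1 reads. Their mean effective length, weighted by TPM, was 2370 and 2597 bases in S1KO, against 3576 and 3663 in WT.

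The assigned shares of several STAB1 transcripts did not overlap between the genotypes, and how often this holds over all transcripts was not counted. These shares are kallisto's division of reads among transcripts that overlap, and reads across a single joint were not counted here, so they do not measure skipping of exon 66. Of the 31-base runs in each transcript, 30 of 641 in STAB1-205, 103 of 2130 in STAB1-204 and 1993 of 7898 in STAB1-201 occur in no other STAB1 transcript. The transcripts in this and the next paragraph were picked after their values were seen, no test was run on shares of 2 libraries per group, and shares carry 95% Wilson intervals for counting error. STAB1-205, whose annotation lacks exon 66, was assigned 5.76% (5.57 to 5.96) and 3.66% (3.55 to 3.78) of STAB1 counts in S1KO, against 0.56% (0.52 to 0.59) and 0.69% (0.65 to 0.74) in WT. In CPM it stood at 208.6 and 183.7 in S1KO, against 36.9 and 30.1 in WT, while the gene as a whole did not separate the genotypes. STAB1-204, annotated with the retained intron, was assigned 35.55% and 36.51% in S1KO, against 21.24% and 18.75% in WT. Other retained-intron transcripts went the other way. STAB1-208 held 3.98% and 4.93% in S1KO, against 7.32% and 7.56% in WT, and STAB1-202, STAB1-203 and STAB1-206 were also lower in S1KO. The 7 retained-intron transcripts together held 42.89% and 44.82% of counts in S1KO, against 34.41% and 32.89% in WT. By TPM they held 53.02% and 60.61% in S1KO, against 64.89% and 62.57% in WT. The full-length STAB1-201 held 51.34% and 51.52% in S1KO, against 65.03% and 66.42% in WT. The largest half-width of an interval on a STAB1 share was 0.43 percentage points. The assigned shares of STAB1-205, STAB1-204 and STAB1-201 differed more between the genotypes than between the libraries of a genotype. Counted on STAB1-201 alone, the longest protein-coding transcript, the log2 fold change of STAB1 was -0.71 (edgeR adjusted p = 0.449), a setting chosen after the data were seen.

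At CD163 the short transcript CD163-211, annotated as a processed transcript with no coding sequence and with 70 of 466 runs of its own, was assigned 21.94% (19.45 to 24.65) and 20.33% (17.50 to 23.49) of the gene's counts in S1KO, against 3.88% (2.76 to 5.42) and 9.61% (7.60 to 12.10) in WT. In CPM it stood at 14.4 and 6.62 in S1KO, against 1.14 and 2.03 in WT. Being short, it held more of the gene's TPM, 78.9% and 74.3% in S1KO, against 30.61% and 50.39% in WT. The retained-intron transcript CD163-205 held less in S1KO, at 13.25% and 20.14%, against 37.53% and 41.68% in WT. CD163-203 carried 512.6 and 155.6 counts in S1KO and 0 in WT, but none of its 31-base runs is absent from the other CD163 transcripts and CD163-209 has 20 such runs. Reads between those 2 are hard to place, and together they held 53.53% and 46.86% in S1KO, against 43.59% and 36.97% in WT. With protein-coding transcripts only, CD163 was at 1.25 (edgeR adjusted p = 0.234). With the effective length offset it was at 1.79 (adjusted p = 0.0648).

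**Figure D3:**
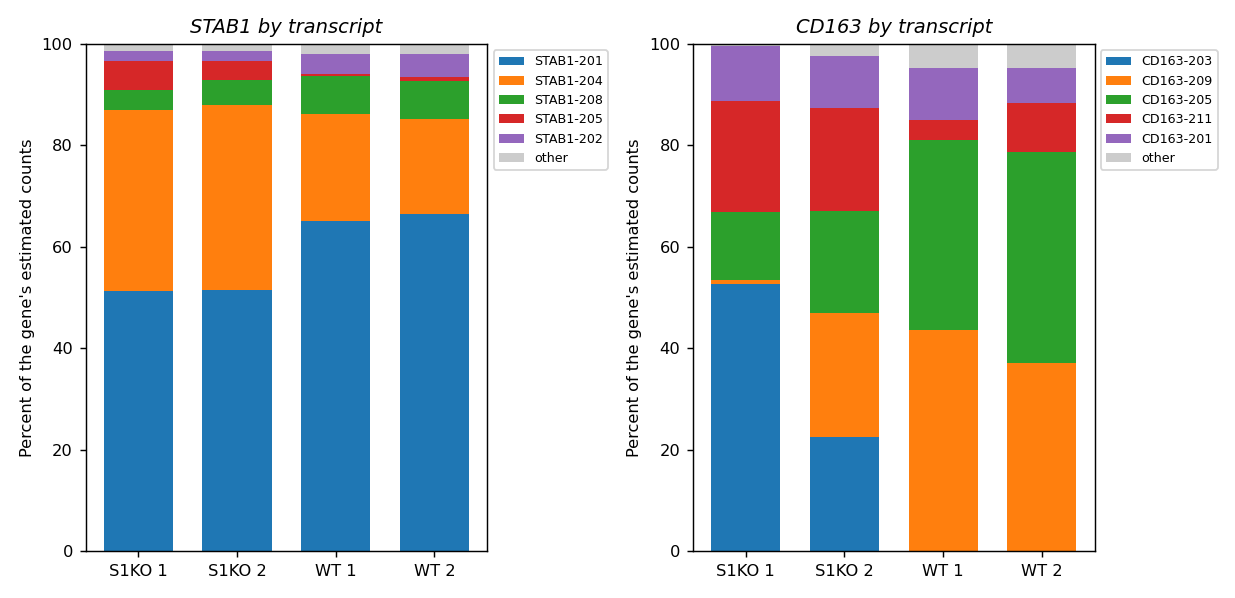
Share of the estimated counts of STAB1 (left) and CD163 (right) held by each transcript, as stacked bars for S1KO 1, S1KO 2, WT 1 and WT 2; transcripts under 4% in every library are pooled as other. STAB1-204 takes 35.55% and 36.51% in S1KO against 21.24% and 18.75% in WT, and CD163-211 takes 21.94% and 20.33% in S1KO against 3.88% and 9.61% in WT.

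Both STAB1-205 and CD163-211 end at the 3′ end of their gene, so the assigned share of such short transcripts was measured over the transcriptome. Coverage along transcripts and RNA integrity were not measured, so whether RNA quality differed between the libraries was not tested. Transcripts ending within 200 bases of the gene's 3′ end and at most 30% as long as its longest transcript were summed in 556 protein-coding genes with at least 500 counts in each library. Their median share was 1.85% and 2.94% in S1KO, against 2.18% and 3.23% in WT, and the median difference was 0.0 percentage points. At STAB1 the share was 41.3% and 40.2% in S1KO, against 21.8% and 19.5% in WT. That sum held the retained-intron transcript STAB1-204 as well as STAB1-205. Most of it was STAB1-204, at 35.55% and 36.51% in S1KO, against 21.24% and 18.75% in WT. STAB1-205 was at 5.76% and 3.66% in S1KO, against 0.56% and 0.69% in WT. Both S1KO libraries lay above both WT libraries in 135 of the 556 genes, or 24.3%, and below in 105. Counting STAB1 itself, 2 genes had a difference as large as its 20.1 points, and counting CD163, 13 had one as large as its 14.4 points.

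SCARB1, OLR1, CD36 and MSR1 also had transcripts whose assigned shares did not overlap between the genotypes. How often this holds over all transcripts was not counted. CD36-207 held 29.02% and 22.53% of CD36 counts in S1KO, against 22.10% and 19.88% in WT. MSR1-202 held 21.64% and 19.87% of MSR1 counts in S1KO, against 19.66% and 14.62% in WT. Interval half-widths were at most 3.69 points for CD36 and 5.33 for MSR1. SCARB1-203, with 27 of 2701 runs of its own, held 56.95% and 49.91% of SCARB1 counts in S1KO, against 38.02% and 38.95% in WT, with interval half-widths of at most 3.73 points for that gene. OLR1-208, a 466-base transcript, held 9.40% and 9.18% of OLR1 counts in S1KO, against 2.03% and 5.14% in WT. The main OLR1 transcript, OLR1-201, held 84.47% and 86.10% in S1KO, against 94.30% and 88.91% in WT. At CD36 and CD68 the main transcript overlapped between the genotypes. By counts CD36-214 was the main CD36 transcript in all 4 libraries, with 67.1% and 59.5% in S1KO, against 63.48% and 67.02% in WT. By TPM CD36-207 held more than CD36-214 in S1KO, 47.40% against 39.53% in S1KO 1 and 36.40% against 34.56% in S1KO 2. In GENCODE 29 neither has a 31-base run of its own. There CD36-214 is 2298 bases long, against 4598 in the files, so its share is uncertain. CD68-201 held 93.6% and 93.5% of CD68 in S1KO, against 96.8% and 93.5% in WT. MRC1 has a single transcript in the files. Of the 91 transcripts of these genes in GENCODE 29, 12 held no 31-base run of their own.

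Around the members, 6 further lists were read from the same fit. Of the 20 other scavenger, lipoprotein and pattern receptors tested, none passed edgeR's threshold, 15 had a negative fold change (51.3% over all genes) and 9 lay below WT in both S1KO libraries (25.8% over all genes). Their median was -0.43, and it was -0.24 without WT 2, -0.17 with the effective length offset and -0.06 with limma on log2(TPM + 1) without mitochondrial genes. CLEC7A, the beta-glucan receptor dectin-1, had 66.8 and 77.1 CPM in S1KO, against 113.6 and 174.1 in WT (edgeR adjusted p = 0.103). LRP1, an endocytic receptor for many ligands, had 141.3 and 159.9 CPM in S1KO, against 246.0 and 236.1 in WT (edgeR adjusted p = 0.108). AGER, the receptor for advanced glycation end products, went the other way, with 44.1 and 49.1 CPM in S1KO, against 28.7 and 28.6 in WT (edgeR adjusted p = 0.103).

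Partners of the receptors, such as co-receptors, kinases and coat proteins, had 14 negative fold changes among 24 tested and a median of -0.29, with 11 below WT in both S1KO libraries (25.8% of all genes). Leaving out WT 1 gave a median of -0.16, and leaving out WT 2 gave -0.17. The toll-like receptor TLR2, which works with CD36, had 88.1 and 110.8 CPM in S1KO, against 184.6 and 277.2 in WT (edgeR adjusted p = 0.0858). The integrin chain ITGB1 (adjusted p = 0.0596) and the tetraspanin CD81 (adjusted p = 0.0983) also had lower values in both S1KO libraries. Of 14 ligands tested 10 were negative, with a median of -0.31 that was -0.05 without WT 1, the library with the mesenchymal transcripts. SPARC, cargo of STAB1, was a matter of 1 library, with 3.10 and 3.90 CPM in S1KO, 281.9 in WT 1 and 0.38 in WT 2. THBS2, a thrombospondin, had 0.81 and 0.52 CPM in S1KO, against 5.04 and 1.15 in WT (edgeR adjusted p = 0.207), and HSPA5, a chaperone, had an adjusted p of 0.0918.

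Genes of haem and iron handling had a median of 0.38, which was 0.08 without S1KO 1 and 0.22 without either WT library. With limma on log2(TPM + 1) it was -0.56, where the median of all genes was -0.783. Of 16 tested, 9 were positive, 6 lay above WT in both S1KO libraries (26.0% of all genes) and none passed edgeR's threshold. SLC40A1, the iron exporter ferroportin, had 64.4 and 30.5 CPM in S1KO, against 14.1 and 8.78 in WT (4.14-fold, edgeR adjusted p = 0.0834). Like CD163, it was higher in S1KO 1 than in S1KO 2. SLC48A1, a haem transporter, had 15.3 and 11.5 CPM in S1KO, against 8.51 and 7.53 in WT (adjusted p = 0.204), and SLC11A2, an iron importer, had 73.0 and 72.4 in S1KO, against 102.6 and 129.99 in WT (adjusted p = 0.123).

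Genes that handle lipid were split, 10 negative and 9 positive among 19 tested, with a median of -0.22. This median turned to 0.22 without WT 2 (13 positive), 0.23 with the replicate block and 0.05 with the effective length offset. With limma on log2(TPM + 1) without mitochondrial genes it was 0.20. FABP3, a fatty acid binding protein, had 13.5 and 8.51 CPM in S1KO, against 4.11 and 2.84 in WT (edgeR adjusted p = 0.0953). ACSL3, an acyl-CoA synthetase, had 17.9 and 25.1 CPM in S1KO, against 41.6 and 41.2 in WT (edgeR adjusted p = 0.099). LPL, lipoprotein lipase, had 25.3 and 29.2 CPM in S1KO, against 19.98 and 15.96 in WT (edgeR adjusted p = 0.20).

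Among 20 transcription factors known to regulate these receptors the median was 0.12, 12 were positive and none passed edgeR's threshold. Without S1KO 1 the median was 0 and without WT 1 it was 0.01, with 10 positive in each. NR1H3, the oxysterol receptor LXR alpha, had 33.0 and 27.8 CPM in S1KO, against 5.15 and 10.9 in WT (edgeR adjusted p = 0.0798). SREBF2, which drives sterol uptake and synthesis, had 64.5 and 68.3 CPM in S1KO, against 130.1 and 93.4 in WT (edgeR adjusted p = 0.13). Of 8 monocyte markers, FCN1 rose in S1KO, at 9.91 and 7.90 CPM against 1.47 and 1.09 in WT (log2 fold change 2.80, SE 0.37, edgeR adjusted p = 0.0405, and 0.0753 with limma on log2(TPM + 1)), while the 8 summed to 119 and 108 CPM in S1KO, against 149 and 126 in WT.

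**Figure D4:**
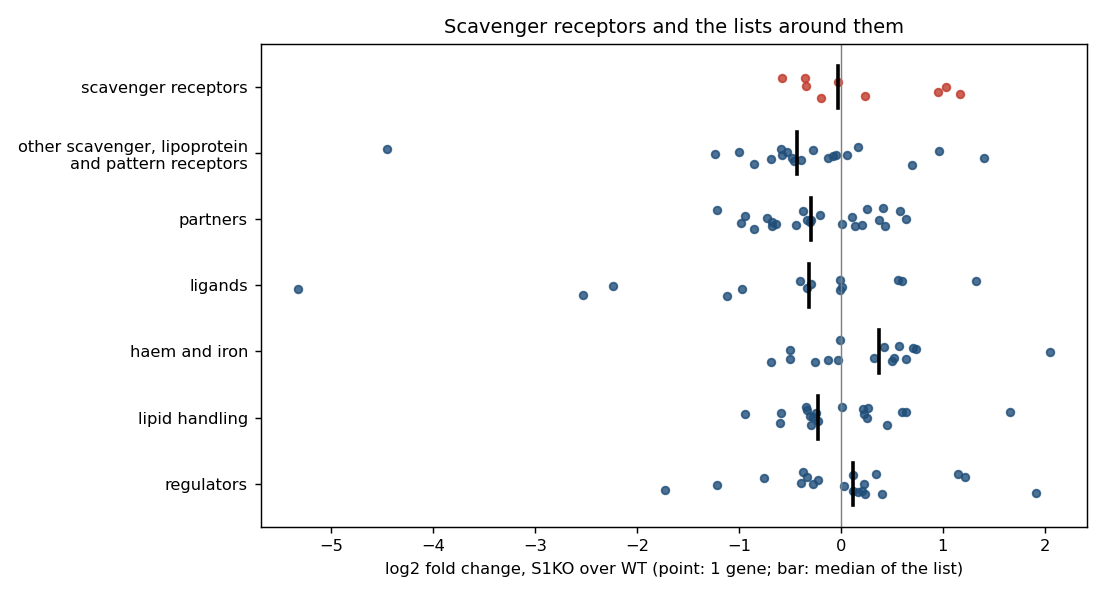
Log2 fold change of S1KO over WT for each gene tested in the scavenger receptor set and 6 lists around it (points), with the median of each list as a bar. The medians run from -0.43 for other receptors to 0.38 for haem and iron genes, and the scavenger receptors sit at -0.03.

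The genes whose profile over the 4 libraries was nearest to the members of smallest p were found by root mean square distance of centred log2 CPM, among protein-coding genes with a mean of at least 5 TPM. For SCARB1 these were CD99L2 (distance 0.013), NHP2 (0.021) and HNRNPAB (0.023). For COLEC12 they were SLC35E3 (0.054), IFT22 (0.088) and RBM41 (0.101). These come from a search over 4 libraries of 8618 genes for SCARB1 and 8619 for COLEC12, and are a description only.

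**Figure D5:**
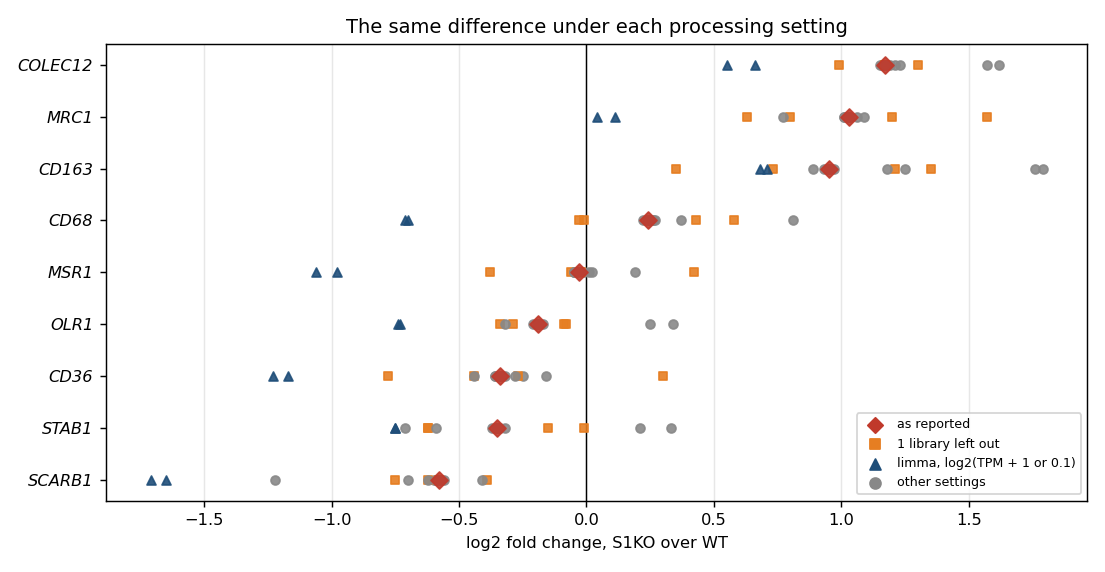
Log2 fold change of S1KO over WT for the 9 members tested under each processing setting; diamonds are the values reported, squares leave out 1 library, triangles use limma on log2(TPM + 1) or log2(TPM + 0.1), and grey points are other settings. COLEC12, MRC1 and CD163 stay to the right of 0 and SCARB1 to the left in each setting that gave them a value (MRC1 had none under the stricter filter), while CD36, MSR1, STAB1, CD68 and OLR1 cross 0.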

How the data were processed

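Poly-A RNA of 4 libraries was sequenced as paired reads of 150 bp, per the labels' protocols. The submitters' processing notes name kallisto and hg38, with no version or transcript set. For every transcript of a library the authors deposited an estimated count, often not whole, and a TPM value, per the file headers. Transcripts were summed to genes with GENCODE 29 (169797 by identifier, 15521 by symbol; 3435 unnamed, 0.323% to 0.643% of counts, left out). Gene sums were rounded, filtered with filterByExpr, scaled by TMM (factors 0.654, 0.957, 1.313 and 1.217 in S1KO 1, S1KO 2, WT 1 and WT 2) and tested with edgeR 4.0.16 (glmQLFTest under R 4.3.3; no covariate; Benjamini-Hochberg threshold 0.05). CPM has no prior count. Alternatives used DESeq2 1.42.0 and limma 3.58.1. The code was tested on simulated data. No library duplicated another, since 368 or more genes differed over 4-fold in each pair. The members and lists were chosen with earlier results of these data known. Named genes are the members, INPP5D, genes of a list past the threshold or otherwise its 3 of smallest p, and the 3 nearest profiles of 2 members. A gene and a sequence that these rules would give are not reported here. Sequences are from GENCODE 29; 84 of 91 member transcripts have the same length in the files, those shown included. Wilson intervals and limits from a count of 0 cover counting error only. Alternatives were scaling, filters, the replicate block, each library left out, effective length, TPM with limma, mitochondrial genes left out and transcript subsets.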

Additional observations from a re-analysis of the deposited data

How the results depend on the processing

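Of 15378 genes 144 were called (121 higher and 23 lower in S1KO, 84% higher). The count was 1157 with DESeq2 (652 higher, 505 lower), 1362 with no filter, 223 with a stricter filter, 2893 with limma on log2(TPM + 1) (133 higher, 2760 lower), 2638 on log2(TPM + 0.1), 298 with limma on log2(TPM + 1) without mitochondrial genes, 21 with protein-coding transcripts only and 0 with the longest protein-coding transcript only (1560 at an unadjusted p under 0.05), the last chosen after the data were seen. With the replicate number as a block edgeR called 0 (2892 at an unadjusted p under 0.05); the numbers are not stated to pair clones, and the deviations of same-numbered libraries correlated at 0.027. Leaving out each library gave 0 to 2069 calls (0 without either S1KO library, 2069 without WT 1 and 2041 without WT 2). Members called were 0 in edgeR, and 1 with no filter (CD163), 1 with limma on log2(TPM + 1) and 1 on log2(TPM + 0.1) (both SCARB1), and 0 to 3 with a library left out. The members' median moved to -0.73 and -0.74 with limma on log2(TPM + 1) and log2(TPM + 0.1), where all genes moved to -0.783 on the first. Without a library it ran from -0.06 to 0.3. With the block the adjusted p of INPP5D was 0.0504, of P2RY12 0.0874 and of FCN1 0.0787.

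Signs turned for CD36 without WT 2 (0.3); for MSR1 with the block (0.02), without WT 2 (0.42), with limma on TPM without mitochondrial genes (0.01) and with the longest transcript (0.19); for STAB1 and OLR1 with the effective length offset (0.21 and 0.25) and with limma on TPM without mitochondrial genes (0.33 and 0.34); and for CD68 without S1KO 1 (-0.01), without WT 2 (-0.03) and with limma on log2(TPM + 1) (-0.7) and log2(TPM + 0.1) (-0.71). Over the fits without a library CD36 ran from -0.78 to 0.3, MSR1 from -0.38 to 0.42 and CD68 from -0.03 to 0.58. The cause was not tested. COLEC12 (0.55 to 1.62), CD163 (0.35 to 1.79), MRC1 (0.04 to 1.57) and SCARB1 (-1.71 to -0.39) kept their sign in each alternative that gave them a value. COLEC12, MRC1 and MARCO are limited by depth, with at most 143 counts in a library.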
